A study of Mus musculus with 15 samples.

Results

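Dio1, Gpd2, Me1, Hr, Bcl3 and Klf9 are 6 genes known as targets of thyroid hormone, here followed in mouse liver through a single dose of hormone, 2 weeks of daily doses and a recovery period. They were taken by symbol, and a probe counted as measured where its detection p-value, which ranks its signal among the negative controls, was under 0.01 on at least 3 of 15 arrays. All 6 passed, with 8 of their 9 probes, beside 8976 genes in all. A second Hr probe was detected on 0 of 15 arrays and was not used further.

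The livers came from male C57BL/6 mice, 8 weeks old, with 3 arrays in each of 5 groups. T3 is liothyronine, the active thyroid hormone, injected into the abdomen at 20 µg per 100 g body weight. Acute T3 means 1 injection and death 6 h later, chronic T3 means 14 daily injections and death 6 h after the last, and T3 withdrawal means 14 daily injections followed by 10 days without any. The animals were handled in 2 experiment subsets, so that acute T3 has its own untreated group (baseline A), and chronic T3 and withdrawal share another (baseline B). No group is described as injected without T3, so the hormone and the act of injecting it cannot be told apart. Nothing in the sources used here says that each array is a separate animal, so the errors measure the spread between samples, which may be technical.

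Thyroid hormone acts through receptors that sit on DNA with retinoid X receptors. Without hormone they hold corepressors at many genes, and with it they exchange them for coactivators. In liver the hormone is known to raise enzymes of its own turnover, of lipid synthesis and of mitochondrial electron supply. Dio1 encodes the type 1 deiodinase, which removes iodine from thyroid hormones and so both makes T3 from thyroxine and clears inactive forms. Gpd2 is the mitochondrial glycerol-3-phosphate dehydrogenase, which passes electrons from cytosolic NADH to the respiratory chain, and Me1 is the cytosolic malic enzyme, which makes NADPH for lipid synthesis. Hr encodes Hairless, a corepressor that binds the thyroid hormone receptor and is itself a hormone target in brain. Bcl3 is a nuclear IkB-like protein that works with the p50 and p52 subunits of NF-kappa B, and Klf9 is a Kruppel-like transcription factor, best known as a hormone target in neural cells.

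The stretches of DNA before the start sites of Dio1, Gpd2, Me1 and Bcl3 are shown because these 4 genes, like Hr, had a higher mean in both T3 groups than in their baselines. Each is the 250 bases before a RefSeq start site in GRCm38.p6, written 5′ to 3′ on the gene's strand, in lower case with receptor core motifs in capitals. They lie at chr4:107307169-107307418 (- strand), chr2:57237428-57237677 (+ strand), chr9:86695915-86696164 (- strand) and chr7:19822756-19823005 (- strand).
Dio1: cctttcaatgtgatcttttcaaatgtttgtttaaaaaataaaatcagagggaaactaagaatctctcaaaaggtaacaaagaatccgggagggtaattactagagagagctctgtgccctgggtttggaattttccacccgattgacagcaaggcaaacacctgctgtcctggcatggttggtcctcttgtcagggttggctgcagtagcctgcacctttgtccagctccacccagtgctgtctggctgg
Gpd2: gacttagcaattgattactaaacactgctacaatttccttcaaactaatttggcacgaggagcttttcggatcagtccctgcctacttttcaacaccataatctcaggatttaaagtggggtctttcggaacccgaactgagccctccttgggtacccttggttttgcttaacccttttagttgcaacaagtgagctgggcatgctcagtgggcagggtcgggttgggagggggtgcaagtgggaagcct
Me1: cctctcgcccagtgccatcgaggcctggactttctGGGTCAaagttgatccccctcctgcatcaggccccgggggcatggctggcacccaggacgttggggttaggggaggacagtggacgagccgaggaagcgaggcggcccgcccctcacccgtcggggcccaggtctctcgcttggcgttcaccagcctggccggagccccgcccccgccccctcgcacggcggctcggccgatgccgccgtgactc
Bcl3: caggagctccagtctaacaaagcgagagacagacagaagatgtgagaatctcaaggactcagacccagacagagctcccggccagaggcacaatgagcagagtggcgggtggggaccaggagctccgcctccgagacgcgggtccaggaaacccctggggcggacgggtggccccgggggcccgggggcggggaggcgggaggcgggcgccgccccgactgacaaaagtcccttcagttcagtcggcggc
The core motifs searched were AGGTCA and GGGTCA on both strands, and a direct repeat in which 4 bases of any kind separate a first AGGTCA from a second, the spacing that the receptor is known to prefer. Every repeat is also counted among the AGGTCA matches. RefSeq's table gave 7 such windows for 5 of the 6 genes, and the Hr window is not analysed here. A core motif was found in 1 of these 7, GGGTCA in the Me1 window, beginning 215 bases before the start. Of the 32851 windows of all genes, 23.8% held either core motif (14% AGGTCA and 11.6% GGGTCA). The repeat was found in 0 of the 7 and in 5 of all windows. A match is a run of letters and no shown binding site, and a window without one says only that these letters are not in these bases.

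Mean signal ran from 435 to 697 over the arrays, each of which detected between 11049 and 14679 of the 45281 probes. Chronic T3 replicates 2 and 3 were the dimmest, with mean signals of 438 and 435. All 8 hepatocyte markers on the list were measured. The probe read for Alb, the albumin gene, fell after acute T3 (-0.86 ± 0.15; limma, adjusted p = 0.0134) and chronic T3 (-1.43 ± 0.15; adjusted p = 4.59e-05). Its log2 level ran from 7.51 to 9.32 over the arrays, and whether it reads the main albumin transcript was not tested. Cyp2e1 fell after chronic T3 (-0.67 ± 0.21; limma, adjusted p = 0.0336). The medians of the 8 were -0.084 and -0.12, and the part of hepatocyte content in the members' changes was not tested. Levels are given as log2 normalized intensity, in which 1 unit is a doubling, and they cannot be set against each other between probes. A difference is the log2 difference between 2 group means ± its moderated standard error (limma, n = 3 arrays a group), and a gene rose or fell where its p-value adjusted over all 8976 genes (Benjamini-Hochberg) was under 0.05. With 3 arrays against 3 an exact permutation test cannot go below p = 0.1, so limma's moderated test was used. In whole tissue, fewer cells of a type and less RNA per cell cannot be told apart.

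After a single injection Gpd2, Bcl3 and Dio1 rose about alike, and Me1, Hr and Klf9 did not pass. These were 3 of 6 genes higher, where 1.47% of all genes tested were called higher. The median difference of the 6 was 1.08, beside a median of -0.0026 over all genes. After chronic T3, 4 of 6 rose (Hr, Gpd2, Dio1 and Bcl3), beside 12.4% of all genes, and the median of the 6 was 1.29 beside 0.025 over all genes, the same with Hr at the lower bound of its rise. No member was called lower in either comparison, beside 0.646% and 10.5% of all genes.

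**Figure D1:**
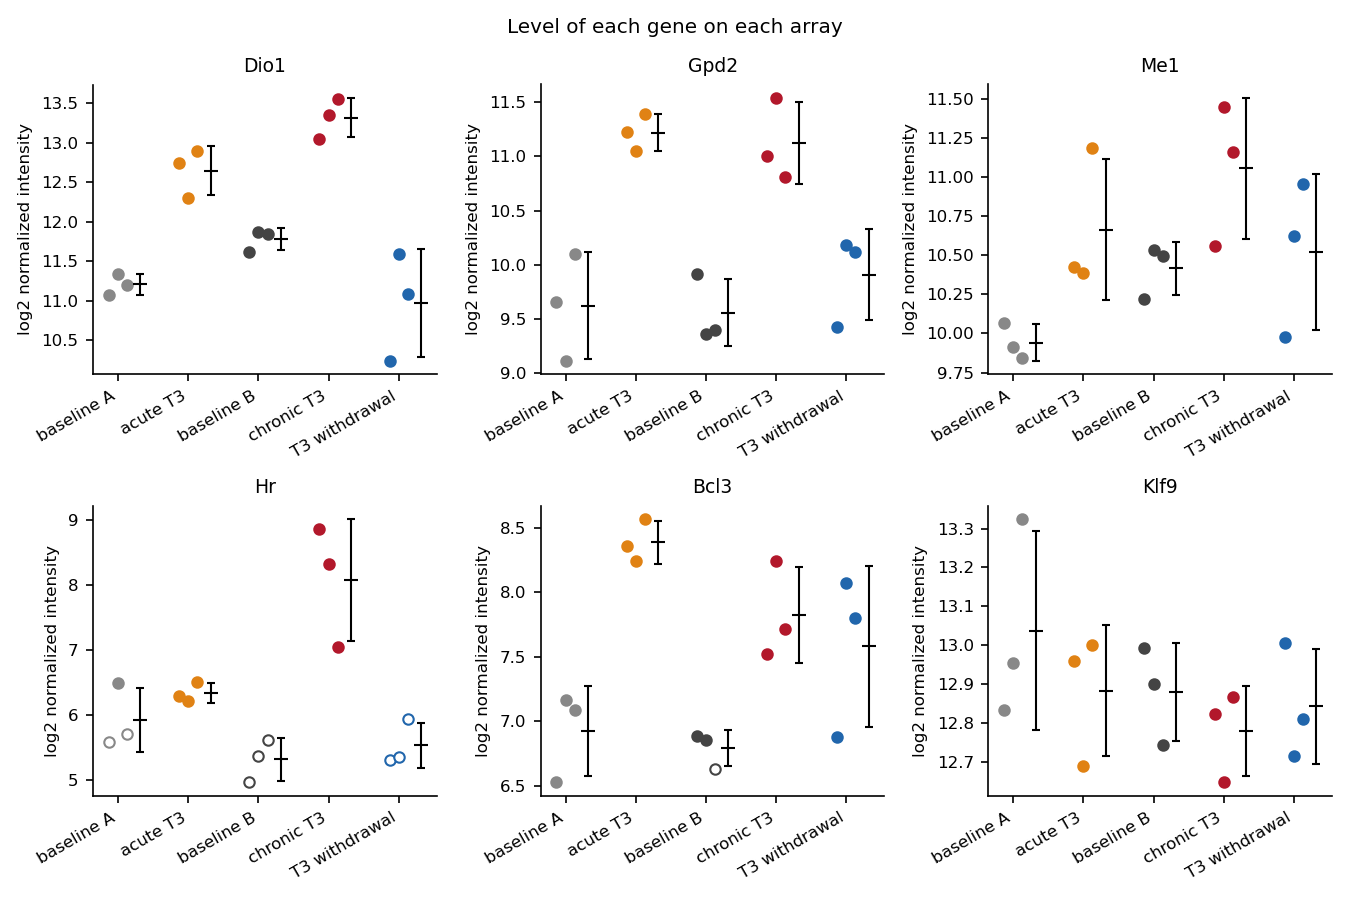
Log2 normalized intensity (y axis) of the brightest probe of each of the 6 genes on the 15 arrays, by group (x axis). Points are arrays (open where detection p was 0.01 or more), and the bar beside them is the group mean ± SD. Dio1 and Gpd2 stand high in both T3 groups, Hr in the chronic group, and Klf9 moves by less than 0.7 over all arrays.

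Among enzymes, Dio1 had levels of 11.07, 11.34 and 11.20 in baseline A and of 12.75, 12.30 and 12.89 after acute T3. All acute arrays lay above all of baseline A, as they did for 11.7% of all genes. The difference was 1.44 ± 0.27, or 2.72-fold (95% interval 1.81 to 4.08; adjusted p = 0.0176). In the other subset Dio1 stood at 11.62, 11.87 and 11.84 in baseline B and at 13.05, 13.35 and 13.55 after chronic T3. Again no array of one group reached into the other, which held for 18.9% of all genes in this direction. The chronic difference was 1.54 ± 0.27, or 2.91-fold (95% interval 1.94 to 4.37; adjusted p = 0.00171). Leaving out the first array of baseline A, or the first or the third acute array, ended the acute call of Dio1 (adjusted p from 0.0718 to 0.0857), while its chronic call held without any 1 array.

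After withdrawal, Dio1 had levels of 10.24, 11.58 and 11.09. It fell by 2.35 ± 0.27 on the log2 scale from chronic T3 to withdrawal (limma, adjusted p = 0.000108). On the brighter Dio1 probe all 3 withdrawal arrays lay under the 3 of baseline B, as for 5.37% of all genes. That difference of -0.81 ± 0.27 had an unadjusted p of 0.0108 and did not pass (limma, adjusted p = 0.512). It was -0.44 without withdrawal replicate 1, the lowest array, and -1.12 without replicate 2. In order of level the groups ran from withdrawal (mean 10.97) over baseline A (11.20), baseline B (11.78) and acute T3 (12.64) to chronic T3 (13.32). Only the first neighbours in that order, withdrawal and baseline A, overlapped.

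The untreated groups did not coincide: the Dio1 level of baseline B exceeded that of baseline A by 0.57 ± 0.27, with no overlap of arrays (10.9% of all genes), but did not pass (adjusted p = 0.176). The dimmer of the 2 Dio1 probes moved further in this comparison, by 1.55 ± 0.49 (adjusted p = 0.0577 over 15361 probes tested by themselves). On that probe baseline A stood at 7.78, 9.11 and 7.96, acute T3 at 10.19, 9.41 and 10.36, and baseline B at 9.66, 10.53 and 9.31. Its acute difference of 1.70 ± 0.49 did not pass (adjusted p = 0.111), and its chronic difference of 1.67 ± 0.49 did (adjusted p = 0.0312). At withdrawal the dimmer probe read 8.29, 9.67 and 8.25, which overlapped baseline B (-1.10 ± 0.49; limma, adjusted p = 0.70). Its withdrawal mean (8.73) lay above that of baseline A (8.28), unlike on the brighter probe. From chronic T3 it differed by -2.77 ± 0.49 (limma, adjusted p = 0.00262). Both Dio1 probes thus had higher means in each T3 group than in its own baseline, while the dimmer one did not separate acute T3 from baseline B.

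Gpd2 had levels of 9.65, 9.11 and 10.10 in baseline A and of 11.22, 11.05 and 11.39 after acute T3. It rose by 1.60 ± 0.28, or 3.03-fold (95% interval 2.00 to 4.60; adjusted p = 0.0124), with no overlap of arrays. Baseline B stood at 9.91, 9.36 and 9.40 and chronic T3 at 11.01, 11.54 and 10.81. The chronic difference of 1.57 ± 0.28 was 2.96-fold (95% interval 1.95 to 4.49; adjusted p = 0.00177). Between the 2 baselines Gpd2 differed by -0.066 ± 0.28 (adjusted p = 0.897), and their arrays overlapped. The acute call was lost without acute T3 replicates 1 or 3 (adjusted p 0.0561 to 0.0625).

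After withdrawal Gpd2 was at 9.42, 10.18 and 10.12, overlapping both baselines. It fell by 1.21 ± 0.28 on the log2 scale from chronic T3 (adjusted p = 0.00975), and was 0.35 ± 0.28 above baseline B (adjusted p = 0.837). Its groups ran from baseline B (9.56) over baseline A (9.62), withdrawal (9.91) and chronic T3 (11.12) to acute T3 (11.22), and the single gap without overlap was that between withdrawal and chronic T3. A dimmer Gpd2 probe, detected on 11 of 15 arrays and on 0 of 3 in baseline B, rose after chronic T3 (at least 1.73-fold higher than the background limit there; adjusted p = 0.00717 over all probes). It had 0.88 ± 0.32 after acute T3 (adjusted p = 0.226). At withdrawal this probe read from 6.15 to 7.14 over the 3 arrays, all above baseline B (at least 1.13-fold; adjusted p = 0.576), and its difference from chronic T3 of -0.61 ± 0.32 did not pass (adjusted p = 0.238). The fall of Gpd2 at withdrawal was thus called on the brighter probe and not on the dimmer one.

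**Figure D2:**
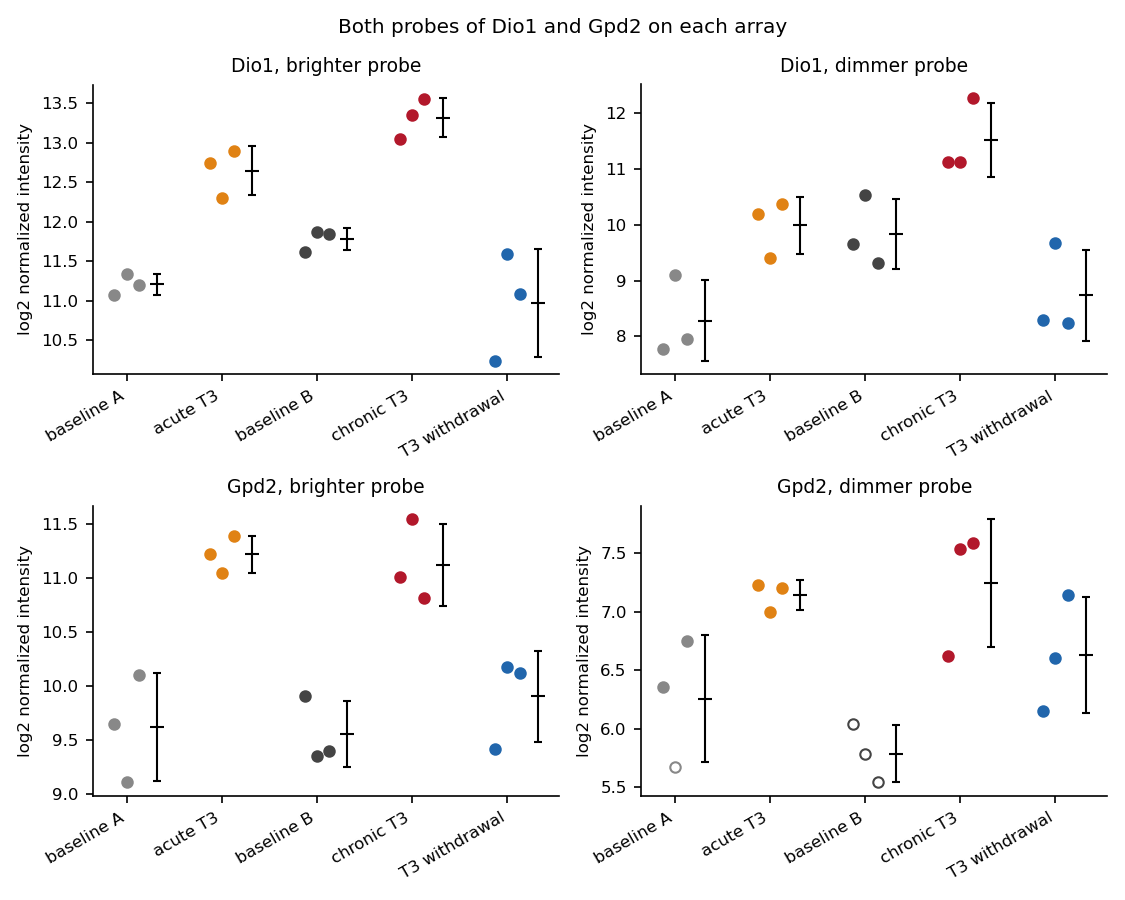
Log2 normalized intensity (y axis) of both probes of Dio1 and of Gpd2 on the 15 arrays, by group (x axis); points are arrays, open where not detected, and the bar is the mean ± SD. On the dimmer Dio1 probe baseline B overlaps acute T3 (means 9.83 and 9.99), and on the brighter one it does not.

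Me1 had higher means in both T3 groups, by smaller steps that did not pass. Its levels were 10.07, 9.91 and 9.84 in baseline A and 10.43, 10.38 and 11.18 after acute T3. They were 10.22, 10.53 and 10.49 in baseline B and 10.56, 11.45 and 11.16 after chronic T3. In both subsets all T3 arrays lay above all baseline arrays. The third acute array stood above the other two, and the first chronic array lay close to the highest of baseline B. The acute difference of 0.72 ± 0.28 (95% interval 0.12 to 1.33; adjusted p = 0.232) and the chronic one of 0.64 ± 0.28 (95% interval 0.037 to 1.24; adjusted p = 0.120) did not pass. Without chronic T3 replicate 1 the chronic difference was 0.89 and passed (adjusted p = 0.0476). Without acute T3 replicate 3 the acute one was 0.46.

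At withdrawal Me1 was at 9.98, 10.62 and 10.96, which spanned baseline B on both sides (0.11 ± 0.28 from it; adjusted p = 0.964). From baseline A (9.94) over baseline B (10.42), withdrawal (10.52) and acute T3 (10.66) to chronic T3 (11.05), each pair of neighbours overlapped except the 2 baselines.

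Among regulators, Hr was the 1 gene whose chronic and acute effects differed by a test, where dosing and subset cannot be told apart. It was dim in untreated liver: 5.59, 6.49 and 5.71 in baseline A, where 1 of 3 arrays detected it, and 4.97, 5.37 and 5.62 in baseline B, where none of the 3 did. After acute T3 all 3 arrays detected it, at 6.29, 6.21 and 6.52, which overlapped baseline A. After chronic T3 the levels were 8.87, 8.33 and 7.05, each above every array of the other groups.

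Hr was at least 3.11-fold higher after chronic T3 than in baseline B, where it was not well above background (adjusted p = 0.000333). The bound takes, on each array where Hr was below detection, the dimmest detected probe in its place. The fitted acute difference was 0.41 ± 0.38 (adjusted p = 0.704), which uses levels below detection on 2 of the 3 arrays of baseline A and is no measured fold. The chronic effect exceeded the acute one by a fitted 2.36 ± 0.54 (adjusted p = 0.0216), 1 of 6 genes with a larger chronic effect beside 3.82% of all genes. That value uses levels below detection in both baselines, and it was 1.40 without background correction (adjusted p = 0.0218). Without the first acute array, or the first of baseline B, this call was lost (adjusted p of 0.0542 and 0.0508). From baseline A to baseline B the fitted level of Hr differed by -0.61 ± 0.38 (limma, adjusted p = 0.303), also with undetected arrays in both.

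At 10 days of withdrawal Hr was at 5.31, 5.36 and 5.94 and again detected on 0 of 3 arrays. It fell from chronic T3 and was at least 3.89-fold lower (adjusted p = 0.000738), and no fold is given against baseline B, where it was below detection as well. The 2 lowest of its groups were thus those not detected, followed by baseline A (5.93), acute T3 (6.34) and chronic T3 (8.09), and only acute and chronic T3 had no overlap as neighbours. The spread among chronic arrays was wide, with an SD of 0.93 and the lowest level on replicate 3, one of the 2 dim arrays.

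Bcl3 rose after both treatments and had an intermediate mean at withdrawal. Its levels were 6.53, 7.17 and 7.09 in baseline A and 8.35, 8.24 and 8.57 after acute T3, a rise of 1.46 ± 0.28 or 2.75-fold (95% interval 1.81 to 4.17; adjusted p = 0.0188). In baseline B they were 6.89, 6.85 and 6.63, and after chronic T3 7.52, 8.24 and 7.71, a rise of 1.03 ± 0.28 or 2.05-fold (95% interval 1.35 to 3.10; adjusted p = 0.0184). Neither pair overlapped. The chronic effect minus the acute one was -0.43 ± 0.39 (95% interval -1.28 to 0.42; adjusted p = 0.568), so the chronic rise was not shown to be smaller.

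Withdrawal arrays had Bcl3 at 6.88, 8.07 and 7.80: the first lay within baseline B and the other two within the chronic range. The difference from baseline B was 0.79 ± 0.28, with an unadjusted p of 0.0140, and did not pass (adjusted p = 0.525). It was 1.14 without withdrawal replicate 1 and 0.55 without replicate 2. From chronic T3 it differed by -0.24 ± 0.28 (95% interval -0.84 to 0.36; adjusted p = 0.610). Baseline B (6.79), baseline A (6.93), withdrawal (7.58) and chronic T3 (7.82) each overlapped with the next, and acute T3 (8.39) stood above all of them.

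Leaving out any 1 array kept the acute difference of Bcl3 between 1.26 and 1.58 and the chronic one between 0.83 and 1.18, but moved some adjusted p-values past 0.05. Its acute call ended when the first array of baseline A, or the first or the third acute array, was left out (adjusted p from 0.0627 to 0.0891). Its chronic call ended without the second chronic array (adjusted p = 0.0769) or the third of baseline B (adjusted p = 0.0644).

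Bcl3 is expressed by immune cells as well as by hepatocytes, so macrophage markers are given beside it. After chronic T3, 10 of 10 measured markers of macrophages and Kupffer cells rose (median 1.66; Folr2, a folate receptor, by 2.26 ± 0.20), and their summed intensity was 13362 to 24307 against 4723 to 7069 in baseline B. After acute T3, when Bcl3 was 2.75-fold higher, 0 of the 10 passed (limma; median -0.30), and the sum was 4296 to 5654 against 4981 to 6367 in baseline A. At withdrawal the sum was 4704 to 5014. Of the macrophage list Cd5l was detected on 0 of 15 arrays. Of 5 neutrophil markers on the array 2 were measured, S100a8 and S100a9, and Ngp and Retnlg were on 0 arrays. S100a8 was a fitted 1.83 ± 0.63 higher at withdrawal than in baseline B and did not pass (adjusted p = 0.512). This is no measured fold, as baseline B replicates 2 and 3 (5.32 and 5.11) lay under the levels of undetected probes. Of 5 T and B cell markers on the array Cd79b, a part of the B cell receptor, was detected on 11 of 15 arrays, with 0.21 ± 0.52 after chronic T3 (adjusted p = 0.801). Cd3d was detected on 2 arrays, and Cd3e, Cd8a and Ms4a1 on 0. The part of immune cells in the chronic and withdrawal levels of Bcl3 and in the chronic rise of Hr was not tested.

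Klf9 passed in none of the comparisons (limma). It was bright on all 15 arrays, with 12.83, 12.95 and 13.32 in baseline A, 12.96, 12.69 and 13.00 after acute T3, 12.99, 12.90 and 12.74 in baseline B, 12.82, 12.65 and 12.87 after chronic T3, and 13.01, 12.72 and 12.81 after withdrawal. All 5 groups overlapped as neighbours. The acute difference was -0.15 ± 0.15 (95% interval for the fold 0.72 to 1.12; adjusted p = 0.708), the chronic one -0.10 ± 0.15 (0.75 to 1.16; adjusted p = 0.667) and the withdrawal one -0.036 ± 0.15 (0.78 to 1.21; adjusted p = 0.979). The intervals leave out a rise of 1.5-fold at 6 h after a dose, on the 1 probe that reads this gene.

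**Figure D3:**
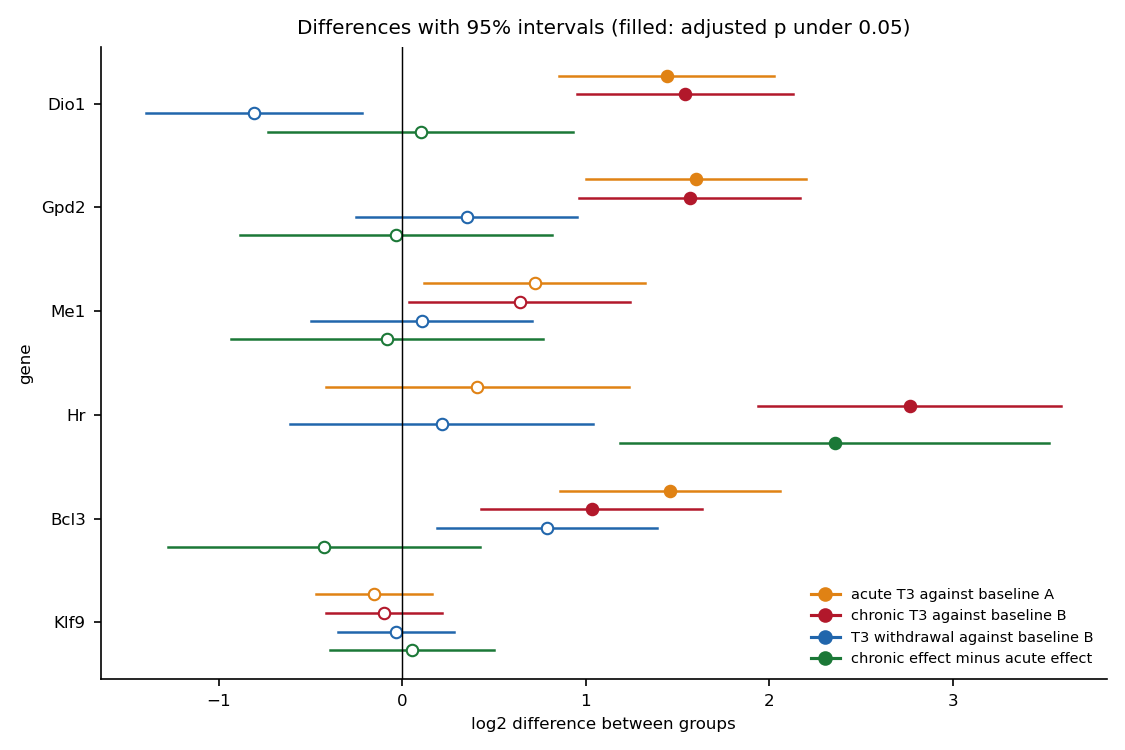
Log2 difference between groups (x axis) of each of the 6 genes (y axis) with its 95% interval, for 3 comparisons with a baseline and for the chronic effect minus the acute effect; filled points passed an adjusted p of 0.05. Dio1, Gpd2 and Bcl3 are filled after acute and chronic T3, Hr after chronic T3 and for the difference of effects, and 0 of 6 at withdrawal. All 4 fitted values of Hr use levels below detection and are no measured folds.

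Set side by side, acute and chronic values of the genes that rose in both subsets were 1.44 and 1.54 for Dio1, 1.60 and 1.57 for Gpd2, and 1.46 and 1.03 for Bcl3. These comparisons use separate baselines. The 95% interval of the chronic effect minus the acute one was -0.73 to 0.93 for Dio1, -0.88 to 0.82 for Gpd2 and -0.94 to 0.77 for Me1, so that changes of either sign by over 1.5-fold remain possible. At withdrawal 0 of 6 passed against baseline B (limma; 2 of 6, Dio1 and Bcl3, had an unadjusted p under 0.05, beside 7.38% of all genes), where 0.0111% of all genes were called higher and 0% lower. Against chronic T3, 3 of 6 fell at withdrawal (Hr, Dio1 and Gpd2), beside 8.31% of all genes. This comparison shares the chronic arrays with that of chronic T3 and baseline B, and so is no separate support for it. Between the baselines 0 of 6 passed on the brightest probes (limma), beside 8.71% of all genes called in either direction. On these probes 0 had an unadjusted p under 0.05, beside 29.8% of all genes. The dimmer Dio1 probe differed by 1.55 ± 0.49 there, with an unadjusted p of 0.0072 (limma, adjusted p = 0.0577).

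Some arrays were low for most of the 6 genes. Acute T3 replicate 2 was the lowest of its group for 6 of 6, and the same 3 of 6 genes were called without it. Withdrawal replicate 1 was the lowest of its group for 5 of the 6, all but Klf9. Without it the differences from baseline B of Dio1 (-0.44) and Bcl3 (1.14) both lay higher than with it (-0.81 and 0.79).

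Receptor partners, coregulators and the lists after them are read against all genes. Of these, 2.12% passed in either direction after acute T3 and 22.9% after chronic T3. Of 5 genes on the list of receptors and partners 3 were measured, the retinoid X receptors, and 0 passed after acute or chronic T3 (limma), with Rxrb at 0.27 ± 0.13 and 0.27 ± 0.13. Among 10 measured coregulators 1 rose after acute T3, Tbl1xr1 of the corepressor complex (0.51 ± 0.10; adjusted p = 0.0243), and 0 passed after chronic T3. The coactivator Ppargc1b had 1.33 ± 0.34 after acute T3 (adjusted p = 0.0589) and 0.16 ± 0.34 after chronic T3. Crebbp and Ppargc1a did not pass in either comparison (adjusted p 0.234 to 0.899). The list's median was 0.057 after acute and 0.034 after chronic T3, near those of all genes. Neither of the other deiodinase genes, Dio2 and Dio3, was measured.

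Gpd2 belongs to the enzymes and carriers that move reducing power into mitochondria. Among 7 measured genes of hydrogen shuttles 0 passed after acute T3 (limma; median 0.044), and after chronic T3 1 rose and 1 fell (median -0.11), where 22.9% of all genes passed in either direction. The gene that rose was Slc25a12 (0.74 ± 0.14; adjusted p = 0.00316), and the one that fell was Slc25a13 (-1.23 ± 0.19; adjusted p = 0.000753), which encode 2 forms of the mitochondrial aspartate-glutamate carrier. Slc25a13 is the main liver form. Its untreated groups differed, with baseline B higher than baseline A by 0.82 ± 0.19 (limma, adjusted p = 0.0226). Slc25a13 rose again by 1.27 ± 0.19 from chronic T3 to withdrawal (adjusted p = 0.000752). Mdh1 and Slc25a11 did not pass (adjusted p 0.381 to 0.920).

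Around Me1, 2 of 6 other NADPH-making enzymes were measured, and neither passed: Idh1 had 0.40 ± 0.23 after acute and 0.14 ± 0.23 after chronic T3, and Idh2 had -0.36 ± 0.18 and -0.46 ± 0.18. Of 4 measured genes of the route from citrate to malonyl-CoA and fatty acids 0 passed in either comparison (limma; medians -0.093 and 0.18). Fasn, the fatty acid synthase, had a fitted 1.69 ± 0.41 after acute T3 (adjusted p = 0.0509) and 0.44 ± 0.41 after chronic T3. In baseline A, Fasn on replicates 2 and 3 (5.40 and 5.60) lay under the levels of undetected probes, so differences from that group are no measured folds. Baseline B was higher than baseline A by a fitted 1.40 ± 0.41 (limma, adjusted p = 0.0494), so the acute and chronic values of Fasn start from unlike levels. Acly, which splits citrate, had -0.087 ± 0.17 and -0.33 ± 0.17, and rose by 0.95 ± 0.17 from chronic T3 to withdrawal (adjusted p = 0.00241). Acacb and Slc25a1 did not pass (adjusted p 0.0982 to 0.837).

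Around Bcl3, 0 of 5 measured NF-kappa B genes passed after acute or chronic T3 (limma; medians 0.12 and 0.22). Nfkbiz, another nuclear IkB protein, had 0.48 ± 0.29 after acute and 0.83 ± 0.29 after chronic T3 (adjusted p = 0.0560), and the inhibitor Nfkbia had -0.073 ± 0.21 and 0.20 ± 0.21. Around Klf9, 0 of 8 measured Kruppel-like factors passed after acute T3 (limma; median -0.12). After chronic T3, where 12.4% of all genes were called higher, 2 of the 8 rose (median 0.41). These were Klf13 (0.72 ± 0.23; adjusted p = 0.0374) and Klf7 (0.46 ± 0.15; adjusted p = 0.0439). Klf13, a close relative of Klf9, had 0.89 ± 0.23 after acute T3 (adjusted p = 0.0601). Its untreated groups differed as well, with baseline B higher than baseline A by 0.88 ± 0.23 (limma, adjusted p = 0.0318). The acute and chronic values of Klf13 thus start from unlike levels. Klf15, a factor of fasting metabolism, had -0.37 ± 0.18 and -0.51 ± 0.18, and Klf3 a fitted -0.30 ± 0.36 and 0.83 ± 0.36. The chronic value of Klf3 uses baseline B levels under those of undetected probes on replicates 1 and 3 (5.46 and 5.38).

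Of 8 other measured hormone-induced liver genes 2 rose after acute T3 (median 0.042), beside 1.47% of all genes. After chronic T3 4 of them rose (median 0.88), beside 12.4% of all genes. Thrsp, a regulator of lipid synthesis, rose in both (3.30 ± 0.32 and 1.03 ± 0.32), as did Cyp7a1 of bile acid synthesis (1.56 ± 0.33 and 1.87 ± 0.33). Fgf21, a hormone of fasting, had -1.54 ± 0.68 after acute T3, which did not pass, and rose by 3.06 ± 0.68 after chronic T3. Slc16a6 had -0.61 ± 0.32 and rose by a fitted 1.34 ± 0.32. In baseline B, Slc16a6 on replicates 1 and 3 (5.99 and 5.79) and Fgf21 on replicate 3 (5.90) lay under the levels of undetected probes. Differences of Slc16a6 and Fgf21 from that group are thus no measured folds. The baselines differed for several of these genes: from baseline A to baseline B Thrsp was higher by 3.09 ± 0.32 (limma, adjusted p = 0.00035) and Slc16a6 lower, with -1.43 ± 0.32 (adjusted p = 0.0193), while Fgf21 had -2.32 ± 0.68 (adjusted p = 0.0504) and Cyp7a1 0.24 ± 0.33. The acute and chronic values of Thrsp, Slc16a6 and Fgf21 thus start from unlike levels.

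**Figure D4:**
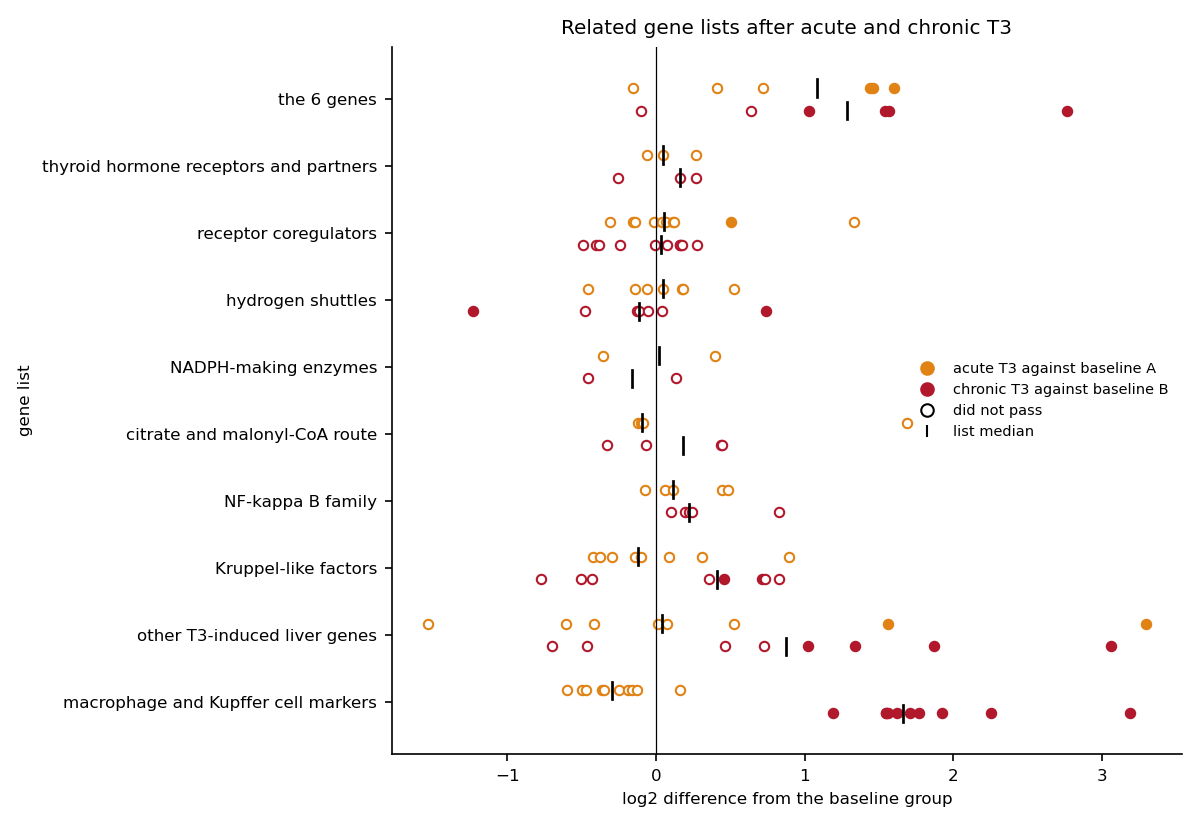
Log2 difference from the baseline group (x axis) after acute and chronic T3 for the 6 genes, for the measured members of related gene lists and for macrophage markers (y axis); filled points passed an adjusted p of 0.05 and the tick is the list median. The medians of the 6 genes are 1.08 and 1.29, and those of the macrophage markers -0.30 and 1.66.

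Genes whose levels ran most nearly with each of the 6 over the 15 arrays were named by Pearson's r over 8975 other genes, as a description: the arrays share groups, so that r mostly reflects group means. With Dio1 ran Trp53inp2 (r = 0.936), the organic anion transporter gene Slc22a7 (0.934) and Slc25a45 (0.927). Slc22a7 had differences of 1.67 after acute T3, 2.28 after chronic T3 and -1.01 at withdrawal, beside 1.44, 1.54 and -0.81 for Dio1. With Gpd2 ran Pdp2, a phosphatase subunit that activates pyruvate dehydrogenase (0.951), Specc1l (0.944) and the growth hormone signal transducer Stat5a (0.939).

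With Me1 ran the monoglyceride lipase gene Mgll (0.918), Dgat2 of triglyceride synthesis (0.898) and Cblc (0.897). With Hr ran the interferon-induced Ifi27 (0.941), the heme exporter gene Flvcr1 (0.930) and the spermine oxidase gene Smox (0.919), of which Smox had 0.22 after acute and 1.26 after chronic T3. With Bcl3 ran the autophagy kinase gene Ulk1 (0.908), Cilk1 (0.873) and Tgfbrap1 (0.865). Ulk1 had 1.21 after acute T3, 0.80 after chronic T3 and 0.65 at withdrawal, beside 1.46, 1.03 and 0.79 for Bcl3. The nearest genes to Klf9 were less alike, with Nagpa at 0.871, Zbtb7c at 0.773 and Pcgf1 at 0.770.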

How the data were processed

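Total RNA of liver was read on Illumina arrays. The deposited signal file holds, per the file headers, a linear intensity for each probe with a detection p-value, and its array totals differ. The authors' value table holds a quantile-normalized intensity on a linear scale. Partek 6.6 is named in the submitters' processing notes; the scanner software is not given in the sources used here.

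neqc used the detection p-values for background correction, then quantile normalization and log2 (limma 3.58.1, R 4.3.3, offset 16). Of 45281 probes, 34885 had 1 gene symbol, 18 several and 10378 none, and looking symbols up in RefSeq (GRCm38.p6) changed 0. A gene was read from its detected probe with the highest mean. One limma fit took in all 15 arrays, each group having its own mean. The fit was tested on simulated data. The members, lists and alternatives were chosen with earlier results of these data known. Named genes were the members, the 3 genes most correlated with each, leaving out predicted and RIKEN-type symbols, and up to 4 of each of 9 pathway lists by smallest adjusted p after acute or chronic T3. Cell type markers came from 7 lists and were named by the same rule or where detected on 2 or fewer arrays. Alternatives changed the background correction, normalization, filter, probes per gene, source of values, variance moderation, array weights, arrays fitted, replicate block and single arrays.

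Replicate numbers are shared between groups. Deviations of same-numbered arrays correlated at 0.126, 0.250 and 0.195 between the baselines, which counts as paired (every pair over 0.1), although the labels do not say what a number stands for. In no other comparison did all pairs exceed 0.1. Printed values come from the fit without a block.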

Additional observations from a re-analysis of the deposited data

Results flagged for a closer look

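The effect of T3 on Hr differed between the 2 subsets by the test of the difference itself: chronic minus acute was a fitted 2.36 ± 0.54 (limma, adjusted p = 0.0216), with all 3 chronic arrays above all other arrays. In baseline B the gene was detected on 0 of 3 arrays, and macrophage markers were also higher in the chronic group (10 of 10 rose), whose part was not tested. None of the other 5 genes had a difference of effects that passed.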

How the results depend on the processing

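Over 12 other settings for each of 36 member values, 428 of 432 kept their side of the threshold and 4 lost a call, with none gained or reversed. The authors' values and the setting with no background correction gave the same counts in every comparison, so they are no separate alternatives. With array weights, Dio1 (1.44; adjusted p = 0.115) and Bcl3 (1.28; adjusted p = 0.123) lost the acute call, leaving 1 member called and 65 genes. Under median scaling, Gpd2 lost its fall at withdrawal (-0.75; adjusted p = 0.0670) and Hr its difference of effects (2.12; adjusted p = 0.0826), leaving 0 members called there. The cause was not tested. That scaling set the median of all genes at 0.137 after acute T3, 0.361 at withdrawal against chronic T3, 0.404 against baseline B, -0.113 for the difference of effects and -0.348 between the baselines. The share called higher among called genes went from 69.5% to 91.9%, from 51.5% to 86.4%, from 53.5% to 36.3% and, between the baselines, from 31.3% to 5.16%.

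Counts of all genes called moved by over 1.5 times as follows. Against 190 for acute T3 there were 295 with no background correction and with the authors' values, 123 under median scaling, 109 with no filter, 288 with trend and robust moderation and 93 with only the groups compared. Against 2052 for chronic T3 there were 888 under median scaling and 898 with only the groups compared. At withdrawal there was 1 against baseline B, with 3 by array weights and 0 with only the groups compared, and 1538 against chronic T3, with 802 with only the groups compared. For the difference of effects 641 became 234 under median scaling. Between the baselines 782 became 501 with no filter, 1639 with every probe by itself, 79 with array weights and 185 with only the groups compared.

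Leaving out 1 array at a time gave 48 to 164 genes and 0 to 3 members called for acute T3, 1376 to 1995 and 3 to 5 for chronic T3, 1 to 4 and 0 for withdrawal against baseline B, 1030 to 1460 and 3 against chronic T3, 311 to 916 and 0 to 1 for the difference of effects, and 128 to 1717 and 0 between the baselines. The acute members fell to 0 without acute T3 replicates 1 or 3. A fit with a replicate block gave 154 genes called for acute T3, 1896 for chronic T3, 1 and 1440 for withdrawal, 569 for the difference of effects and 659 between the baselines, and no member's call changed. No slide is named, so no slide block was run. Having 3 arrays a group limits every value, and Hr lies near background.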
